A study of Mus musculus with 9 samples.

Results

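Matrix metalloproteinases (MMPs) and their tissue inhibitors (TIMPs) were followed in peritoneal macrophages stimulated with imiquimod (IMQ), a ligand of the endosomal receptor TLR7. The 9 genes, Mmp8, Mmp9, Mmp12, Mmp13, Mmp14, Mmp19, Timp1, Timp2 and Timp3, were taken by symbol and are 9 of the 54059 genes in the table of expression values. All libraries came from C57BL/6 mice, aged 8 weeks in the sample labels and 8 to 10 weeks in the methods, whose peritoneal cells were collected 3 days after an injection of 1 ml of starch broth and purified by adherence. The 3 groups, of 3 libraries each, were wild-type macrophages with IMQ, M-Shp2-/- macrophages (SHP2lyz2-/- in the sample labels) with IMQ, and wild-type macrophages given SHP099, an allosteric inhibitor of the phosphatase SHP2, before IMQ. IMQ was present for 4 h in all groups, SHP099 was used at 10 µM from 2 h earlier, and IMQ was at 10 µg/ml in the SHP099 experiment. These treatments come from the methods and legends of the study. In M-Shp2-/- mice the floxed Shp2 gene is deleted by Lyz2-cre, which is active in monocytes, macrophages and granulocytes and leaves Shp2 intact in other cells of a culture. No library without IMQ was analysed here, and both comparisons with the wild type used the same 3 wild-type libraries. The labels do not say whether the replicates came from separate mice, so that p-values measure the spread between these cultures only.

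MMPs are zinc-dependent endopeptidases that are made as inactive zymogens and that together cleave most proteins of the extracellular matrix, as well as cytokines, chemokines and receptors at the cell surface. TIMPs bind the active site of MMPs and hold their activity in check. Macrophages make MMPs when they migrate, remodel tissue or respond to Toll-like receptor ligands, and in inflamed skin these enzymes open the basement membrane and loosen the dermal matrix. Transcript levels say nothing of zymogen activation, secretion or inhibition, which were not measured.

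Expression was given as FPKM, read fragments normalised to transcript length and library size, with 39843014 to 50980745 reads behind each library. Ptpn11, which encodes SHP2, was read first as a check of the labels. It stood at 45.8, 44.0 and 40.0 FPKM in the wild-type libraries, at 18.6, 17.8 and 18.9 FPKM in the M-Shp2-/- libraries and at 43.0, 42.1 and 39.6 FPKM in the SHP099 libraries. All M-Shp2-/- libraries were thus below all others, at a mean of 42.5% of the wild-type mean, and the inhibitor group was at 96.1% of it. The log2 fold change was -1.19 in M-Shp2-/- against wild type (limma adjusted p = 0.0168), and among the remaining Ptpn11 reads those of undeleted cells and those of undeleted exons cannot be told apart.

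The cell type on the labels was checked with 8 macrophage markers, and all 8 were expressed. Lyz2, Cd68 and Adgre1, which encode lysozyme, macrosialin and F4/80, were the most abundant of them, and Adgre1 ranged from 172 to 349 FPKM. Lyz2 itself was at 4863, 4743 and 5407 FPKM in the M-Shp2-/- libraries against 7440 to 10228 FPKM in the wild type. M-Shp2-/- mice carry Lyz2-cre, and its part in this level of Lyz2 was not tested. Of 12 neutrophil markers, 9 had a mean below 1 FPKM, and Ly6g, Mpo, Elane and Cxcr2 were at or near 0 in every library (at most 0.12 FPKM). The other 3 were expressed, with Csf3r, the receptor of granulocyte colony-stimulating factor, at 51.5 to 94.2 FPKM, S100a8 at 34.5 to 95.4 FPKM and Camp at 2.92 to 4.95 FPKM, while S100a9, the partner of S100a8, did not exceed 1.11 FPKM. The summed level of the neutrophil list was 118, 162 and 155 FPKM in the wild type, 94.5, 97.3 and 174 FPKM in M-Shp2-/- and 107, 112 and 149 FPKM with SHP099, and Csf3r was its most abundant gene by the mean.

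Markers of stromal and mesothelial cells set some libraries apart. Their summed level over 12 genes, with Col1a1 the most abundant, was 70.5, 316 and 48.0 FPKM in the wild-type libraries, 143, 55.8 and 601 FPKM in the M-Shp2-/- libraries and 370, 145 and 107 FPKM in the SHP099 libraries. A stromal score, the mean log2(FPKM + 1) of Col1a1, Col1a2, Col3a1 and Dcn, was accordingly highest in M-Shp2-/- library 3 (7.01), SHP099 library 1 (6.15) and wild-type library 2 (6.02), and between 3.29 and 4.80 in the other 6 libraries. None of the 12 genes was at 0 in all libraries, although Lum, a fibroblast marker, did not exceed 0.25 FPKM. In each group Col1a1, Col1a2, Col3a1, Dcn, Lum, Pdgfra and Wt1 were highest in the library with the highest score. Pdgfrb was instead highest in wild-type library 3 (6.41 FPKM against 4.99 FPKM in library 2) and lowest with SHP099 in library 1. Msln, Upk3b, Krt8 and Krt19 were lower in SHP099 library 1 than in library 2. Krt8 and Krt19 were also lower in M-Shp2-/- library 3 than in library 1. M-Shp2-/- library 3 also differed from its group in some of the macrophage markers, with 19.4 FPKM of the mannose receptor gene Mrc1 against 59.8 and 71.2 FPKM in libraries 1 and 2, and 176 FPKM of Csf1r, the receptor of macrophage colony-stimulating factor, against 87.4 and 71.8 FPKM. In these 2 it was nearer to the SHP099 libraries than to its group. It also lay apart from libraries 1 and 2 in Cd68, at 1227 FPKM against 1603 and 1740 FPKM (1211 to 1271 FPKM with SHP099). Itgam was at 111 FPKM in it against 52.1 and 45.8 FPKM (73.2 to 89.4 FPKM with SHP099). Fcgr1 was at 3.48 FPKM in it against 0.987 and 0.701 FPKM (1.31 to 2.63 FPKM with SHP099). The Ptpn11 level of M-Shp2-/- library 3 was that of its group, as was its Lyz2 level (5407 FPKM against 9348 to 10715 FPKM with SHP099). Both genes are tied to the genotype of this group by design, as floxed Shp2 and Lyz2-cre. M-Shp2-/- library 3 also lay with or near its group in Mertk (3.98 FPKM against 3.28 and 4.35 FPKM in libraries 1 and 2). Adgre1 was at 263 FPKM in it against 280 and 274 FPKM. What sets this library apart was not tested, and it is part of every M-Shp2-/- value given here unless stated. In such bulk cultures a change in the number of cells of a type and a change in RNA per cell cannot be told apart. Values of the MMP and TIMP genes that rest on these libraries are therefore also given without them.

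All 9 genes had a mean of at least 1 FPKM over the 9 libraries, the limit for testing, which 11450 genes passed. In the wild type, Mmp14 was highest at 1004 ± 107 FPKM (SD, n = 3), followed by Mmp12 at 145 ± 34.8 FPKM, Timp2 at 104 ± 10.9 FPKM and Timp1 at 74.8 ± 64.5 FPKM. Mmp9 (31.8 ± 9.27 FPKM), Mmp13 (11.9 ± 2.90 FPKM), Mmp19 (9.64 ± 5.08 FPKM), Timp3 (6.77 ± 7.58 FPKM) and Mmp8 (6.16 ± 1.70 FPKM) followed. Among neighbours in this order, the wild-type libraries of Mmp14 and Mmp12 did not overlap, nor did those of Mmp9 and Mmp13, whereas every other pair of neighbours overlapped. The order depends on the length by which reads are divided. FPKM here used the mean length of the annotated transcripts, and with the longest transcript Mmp14 (440 FPKM) stayed first and Timp1 (72.7 FPKM) came before Mmp12 (62.6 FPKM) and Timp2 (62.1 FPKM). The wild-type libraries of Mmp9 and Mmp13 then overlapped, and the pairs of neighbours that did not were Mmp14 and Timp1, Timp2 and Mmp9, and Mmp13 and Mmp8.

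**Figure D1:**
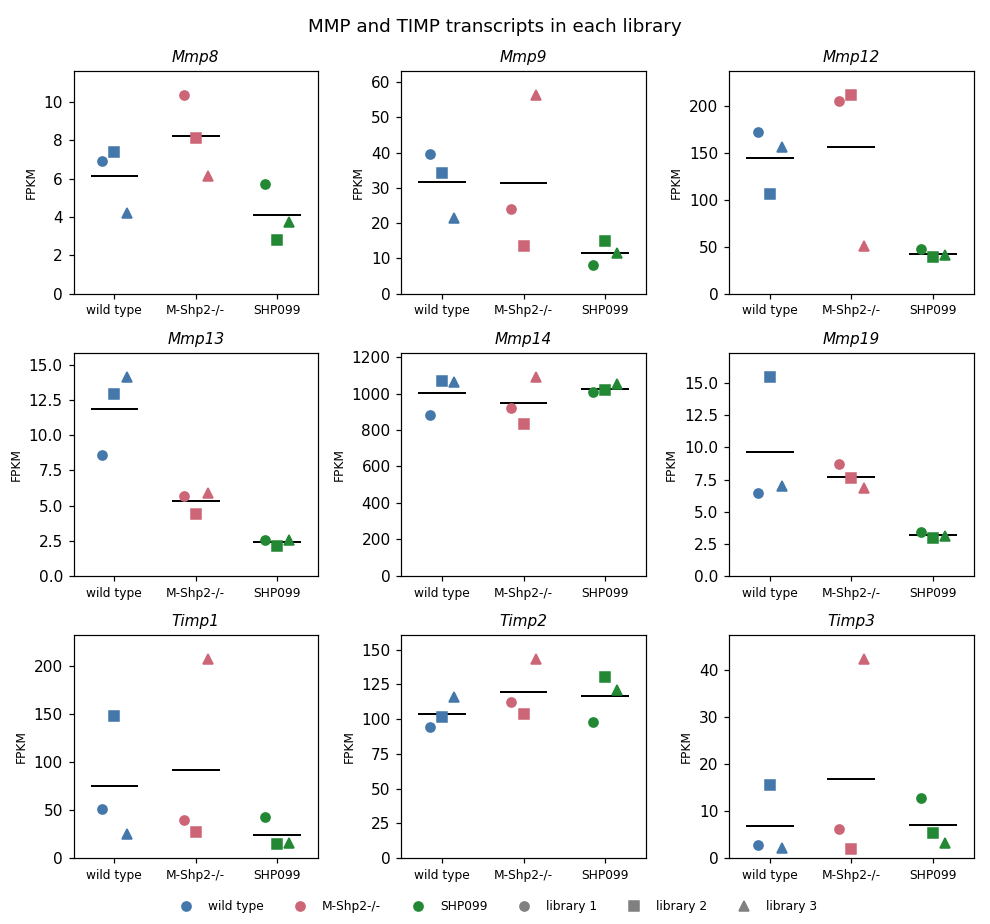
FPKM of each MMP and TIMP gene (vertical axes from 0) in the 9 libraries, coloured by group, with a marker shape for the library number and a black line at the group mean. Mmp12 in the SHP099 libraries lies between 38.7 and 47.0 FPKM, below all wild-type libraries, while M-Shp2-/- library 3 (51.0 FPKM) lies near the SHP099 group.

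The elastase Mmp12 and the collagenase Mmp13 had the lowest adjusted p of the 9 genes with SHP099. Mmp12 encodes macrophage metalloelastase, which degrades elastin, and lies at chr9:7344381-7369499 on the plus strand (GRCm38). It stood at 172, 106 and 156 FPKM in the wild-type libraries, at 205, 212 and 51.0 FPKM in the M-Shp2-/- libraries and at 47.0, 38.7 and 40.8 FPKM in the SHP099 libraries. The SHP099 libraries were all below the wild type, and in the M-Shp2-/- group libraries 1 and 2 were above every wild-type library while library 3 was below them all. Mmp12 fell by 1.73 on the log2(FPKM + 1) scale with SHP099 against wild type (95% interval -2.16 to -1.30; limma adjusted p = 0.00846). The limit of 0.05 was missed without SHP099 library 2 (-1.67; limma adjusted p = 0.0537) and with all 9 libraries in 1 fit (0.0659), whose spread includes the M-Shp2-/- libraries. In M-Shp2-/- against wild type the log2 fold change was -0.12 (95% interval -1.43 to 1.20; limma adjusted p = 0.923), and without M-Shp2-/- library 3 it was 0.55 (limma adjusted p = 0.243).

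Mmp13 encodes collagenase 3, which cleaves fibrillar collagens, and lies at chr9:7272514-7283331 on the plus strand. Its values were 8.63, 12.9 and 14.2 FPKM in the wild-type libraries, 5.66, 4.38 and 5.86 FPKM in the M-Shp2-/- libraries and 2.56, 2.11 and 2.54 FPKM in the SHP099 libraries. The 3 groups did not overlap, with the wild type highest, M-Shp2-/- between and SHP099 lowest, and M-Shp2-/- library 3 lay with its group. Mmp13 fell by 1.90 with SHP099 against wild type (95% interval -2.34 to -1.45; limma adjusted p = 0.00769), and it kept an adjusted p of 0.0448 or less without any single library. With a pseudocount of 5 in place of 1 its fold change was -1.18 (limma adjusted p = 0.00974). In M-Shp2-/- the log2 fold change of -1.02 (95% interval -1.51 to -0.52) was not significant after adjustment (limma adjusted p = 0.388), with all 3 libraries below the wild type.

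The RefSeq promoter table (GRCm38.p6) held windows for 7 of the 9 genes, and Mmp9 and Mmp19 had no entry. The 100 bases before a start of Mmp13, of Mmp12 and of Mmp14 are printed because the first 2 genes fell together with SHP099 and Mmp14 did not. Mmp12 has 2 starts in the table, and the stretch before the first is not printed because its last 16 bases lie in an annotated exon; the window of that start holds no TGANTCA. Capitals mark TGANTCA, the letters bound by AP-1 factors, and TATAAA, the TATA box, each searched on both strands.
Mmp13, chr9:7272414-7272513, plus strand: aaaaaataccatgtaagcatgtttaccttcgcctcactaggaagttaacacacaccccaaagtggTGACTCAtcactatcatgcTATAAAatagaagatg
Mmp12, chr9:7347274-7347373, plus strand: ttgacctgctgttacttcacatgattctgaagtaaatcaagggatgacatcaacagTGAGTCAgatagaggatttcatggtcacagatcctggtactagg
Mmp14, chr14:54431498-54431597, plus strand: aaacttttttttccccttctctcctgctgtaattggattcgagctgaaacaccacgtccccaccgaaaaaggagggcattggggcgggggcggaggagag
None of these stretches overlaps an annotated exon, and that of Mmp12 precedes its second start and lies in an intron of the longer gene model. TGANTCA began 35 bases before the start of Mmp13, as TGACTCA, and 44 bases before that start of Mmp12, as TGAGTCA. In windows from 250 bases before to 50 after a start, it was found in 2 of the 8 windows of the 7 genes, both shown here, and in 7.81% of all 32851 windows. TATAAA was found in windows of Mmp13, Mmp12 (there after the start) and Mmp8 and in 13.6% of all windows, whereas GGGCGG, the GC box, was found in those of Mmp14, Timp1, Timp2 and Timp3 and in 35.7% of all windows. Of the other letters searched, the NF-kB motif (5.56% of all windows) and the STAT motif TTCNNNGAA (8.30%) were in none of the 8 windows, the ETS motif AGGAAG (35.4%) was in 6 and the C/EBP motif TTGCNNAA (10.8%) in 2. These matches are descriptions of the letters only.

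Mmp9 encodes gelatinase B, which cleaves denatured collagen and type IV collagen of basement membranes, and lies at chr2:164940780-164955850. It was at 39.6, 34.2 and 21.5 FPKM in the wild type, at 24.1, 13.4 and 56.5 FPKM in M-Shp2-/- and at 8.23, 15.0 and 11.4 FPKM with SHP099. The SHP099 libraries were all below the wild type, whereas the M-Shp2-/- libraries spanned more than the wild-type range, with library 3 the highest of all 9. Mmp9 fell by 1.38 with SHP099 against wild type (95% interval -2.01 to -0.74; limma adjusted p = 0.0329). This call was lost when any library other than wild-type library 3 was left out (limma adjusted p = 0.0715 to 0.114), when all 9 libraries were fitted together (0.103) and with the replicate number as a block (0.05 after rounding, just above the limit). In M-Shp2-/- the log2 fold change was -0.21 (95% interval -1.40 to 0.98), and without library 3 it was -0.74 (limma adjusted p = 0.265).

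Mmp19 encodes an MMP that acts on basement membrane proteins such as laminin and nidogen, and lies at chr10:128790910-128800824. It was at 6.45, 15.5 and 6.99 FPKM in the wild type, at 8.70, 7.63 and 6.88 FPKM in M-Shp2-/- and at 3.39, 2.98 and 3.12 FPKM with SHP099. The SHP099 libraries were below all others, and wild-type library 2 was above all others. The log2 fold change with SHP099 was -1.26 (95% interval -1.95 to -0.56), just above the limit of 0.05 (limma adjusted p = 0.051), and it was below that limit without wild-type library 2 (-0.89; limma adjusted p = 0.0357) or 3 (-1.41; limma adjusted p = 0.0452). With a pseudocount of 5 it was -0.79 (limma adjusted p = 0.069). In M-Shp2-/- it was -0.19 (limma adjusted p = 0.763), and without wild-type library 2 it was 0.18.

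Mmp8 encodes neutrophil collagenase and lies at chr9:7558456-7568485. It was at 6.90, 7.37 and 4.21 FPKM in the wild type, at 10.4, 8.13 and 6.13 FPKM in M-Shp2-/- and at 5.70, 2.80 and 3.73 FPKM with SHP099. Groups overlapped in both comparisons with the wild type, and the log2 fold changes were 0.37 in M-Shp2-/- and -0.50 with SHP099 (limma adjusted p = 0.54 and 0.272). As stated for the marker lists, Ly6g, Mpo and Elane, which accompany Mmp8 in neutrophils, were at or near 0 in these libraries, whereas Csf3r (51.5 to 94.2 FPKM) and S100a8 (34.5 to 95.4 FPKM) of the same list were not, and the part of neutrophils in the level of Mmp8 was not tested.

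Mmp14 encodes a collagenase anchored in the membrane, which with Timp2 activates the Mmp2 zymogen at the cell surface, and lies at chr14:54431612-54445364. It was at 881, 1068 and 1063 FPKM in the wild type, at 919, 831 and 1091 FPKM in M-Shp2-/- and at 1011, 1018 and 1054 FPKM with SHP099. The groups overlapped throughout, and the highest library was 1.31 times the lowest. The log2 fold change was 0.04 with SHP099 (95% interval -0.20 to 0.28) and -0.09 in M-Shp2-/- (95% interval -0.42 to 0.25). Mmp14 made up 77.2% to 89.6% of the summed FPKM of the 6 MMP genes in the wild-type and M-Shp2-/- libraries and 93.8% to 94.5% in the SHP099 libraries. The other 5 MMP genes together came to 234, 176 and 203 FPKM in the wild type, 254, 245 and 126 FPKM in M-Shp2-/- and 66.9, 61.6 and 61.6 FPKM with SHP099. Mmp12 was the largest part of this sum in every library other than M-Shp2-/- library 3, where Mmp9 was.

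**Figure D2:**
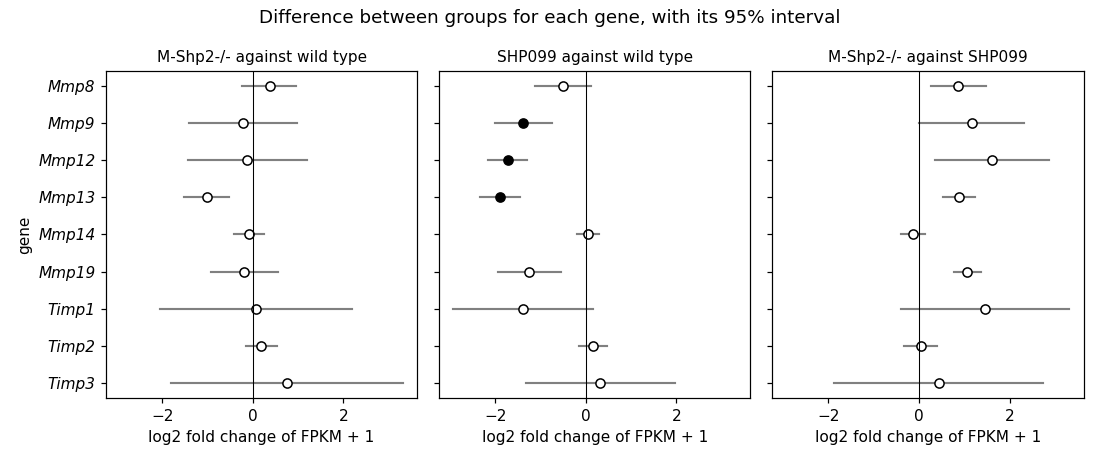
Log2 fold change of FPKM + 1 (horizontal axes) for each gene in the 3 comparisons, with lines for the 95% interval of the limma fit; filled points mark a limma adjusted p of at most 0.05. Filled points appear only for Mmp9 (-1.38), Mmp12 (-1.73) and Mmp13 (-1.90) in SHP099 against wild type.

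Among the inhibitors, Timp2 had the lowest ratio of its highest to its lowest library (1.52). It encodes an inhibitor that also bridges Mmp14 and the Mmp2 zymogen, and it lies at chr11:118301069-118355740 on the minus strand. It was at 94.4, 102 and 116 FPKM in the wild type, at 112, 103 and 143 FPKM in M-Shp2-/- and at 98.1, 130 and 121 FPKM with SHP099. All groups overlapped, with log2 fold changes of 0.19 in M-Shp2-/- (95% interval -0.16 to 0.54) and 0.16 with SHP099 (95% interval -0.15 to 0.46). Without M-Shp2-/- library 3 the former was 0.06.

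Timp1 encodes a secreted inhibitor that binds the Mmp9 zymogen and inhibits Mmp14 poorly, and it lies at chrX:20870166-20874735. It was at 51.1, 148 and 25.5 FPKM in the wild type, at 39.6, 27.4 and 207 FPKM in M-Shp2-/- and at 43.0, 15.0 and 15.5 FPKM with SHP099. The highest libraries were M-Shp2-/- library 3 and wild-type library 2, and the groups overlapped. The log2 fold change with SHP099 was -1.38 (95% interval -2.93 to 0.16; limma adjusted p = 0.23). It was -0.71 without wild-type library 2 (limma adjusted p = 0.404), -1.96 without wild-type library 3 (0.0884) and -1.86 without SHP099 library 1 (0.225). In M-Shp2-/- it was 0.07 (95% interval -2.05 to 2.19), 0.74 without wild-type library 2 and -0.80 without M-Shp2-/- library 3.

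Timp3 encodes an inhibitor held in the matrix that also blocks ADAM17, and it lies at chr10:86300372-86349506. It was at 2.71, 15.5 and 2.08 FPKM in the wild type, at 6.25, 1.88 and 42.3 FPKM in M-Shp2-/- and at 12.8, 5.26 and 3.24 FPKM with SHP099. The highest library of each group, wild-type library 2, M-Shp2-/- library 3 and SHP099 library 1, was also the library of its group with the highest stromal score. The log2 fold changes of 0.75 in M-Shp2-/- and 0.32 with SHP099 had wide intervals (-1.81 to 3.32 and -1.32 to 1.96), and the former was -0.33 without M-Shp2-/- library 3 and 1.51 without wild-type library 2. The latter was 1.08 without wild-type library 2 and -0.15 without SHP099 library 1. Timp1 was high in the same wild-type and M-Shp2-/- libraries. With the stromal score as a covariate, an alternative chosen after seeing the data, Timp3 was at 0.01 in M-Shp2-/- (limma adjusted p = 0.986) and at -0.34 with SHP099 (0.178). Timp1 was then at -0.53 in M-Shp2-/- (limma adjusted p = 0.47) and at -2.00 with SHP099 (0.00673). The genes whose pattern was most like that of Timp3 over the 9 libraries were Slit3 and Loxl2 (Pearson r of log2(FPKM + 1) of 0.992 and 0.991), and those most like Timp1 were C1qtnf1 and Rasl11a (0.988 and 0.975).

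**Figure D3:**
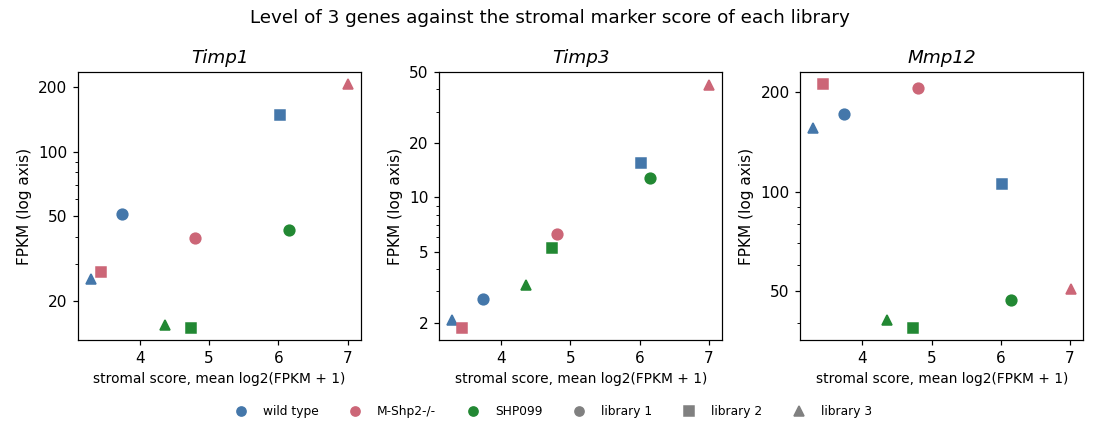
FPKM of Timp1, Timp3 and Mmp12 (vertical log axes) against the stromal score of each library (mean log2(FPKM + 1) of Col1a1, Col1a2, Col3a1 and Dcn), coloured by group with a marker shape for the library number. M-Shp2-/- library 3, at a score of 7.01, has the highest Timp1 (207 FPKM) and Timp3 (42.3 FPKM), and its Mmp12 (51.0 FPKM) is the lowest of its group.

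Counted together in M-Shp2-/- against wild type, limma called 0 of the 9 genes at the thresholds of the study (adjusted p up to 0.005 with a log2 fold change of 1 or more in either direction), against 0.00873% of all genes. With the limit at 0.05 and no fold threshold the count was also 0 (0.0873% of all genes), 1 gene had an unadjusted p under 0.05 (10.5% of all genes), and voom on recovered reads also called 0. Groups did not overlap for 1 gene, Mmp13, which was lower, as were 3.07% of all genes. The median log2 fold change was -0.09 over the 9 genes and 0.15 over all genes. With libraries scaled by the median of ratios the latter was -0.01, and with this scaling Mmp13 was at -1.17 and Mmp14 at -0.27. With 3 libraries on each side, 0.1 is the smallest two-sided p that an exact permutation test allows. The study set its thresholds for DESeq, a test on read counts, so all calls given here at those thresholds come from another test. In this limma fit Ptpn11, the deleted gene, did not pass those thresholds either (limma adjusted p = 0.0168).

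With SHP099 against wild type, 0 of the 9 genes passed the thresholds of the study (0.166% of all genes called; 0 with voom), and 3, Mmp9, Mmp12 and Mmp13, passed an adjusted p of at most 0.05, all lower (6.96% of all genes passed, and 2.41% were lower). When genes of any level were tested together, these 3 genes missed the limit of 0.05 (limma adjusted p = 0.131, 0.0623 and 0.0536). An unadjusted p under 0.05 was reached by 4 of the 9 genes and by 26.7% of all genes. Libraries did not overlap, with SHP099 lower, for those 3 and Mmp19 (6.77% of all genes). The median log2 fold change was -1.26 over the 9 genes and 0.13 over all genes. When libraries were scaled by the median of ratios, the median over all genes moved from 0.13 to -0.01, and with this scaling Mmp12 was at -1.88, Mmp13 at -2.03, Mmp9 at -1.52 and Mmp19 at -1.38 (limma adjusted p = 0.0402). The share of higher genes among all those past the limit of 0.05 went from 65.4% to 33.7% with that scaling, and Mmp14 went from 0.04 to -0.11.

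Whether the deletion and the inhibitor differed was tested directly between M-Shp2-/- and SHP099. With all libraries limma called 0 of the 9 genes at the thresholds of the study (0% of all genes) and also 0 at the limit of 0.05 (0.0699% of all genes; 0 with voom), and 5 genes had an unadjusted p under 0.05 (12.6% of all genes). Libraries did not overlap, with M-Shp2-/- higher, for 4 genes, Mmp8, Mmp12, Mmp13 and Mmp19 (7.90% of all genes), with log2 fold changes of 0.87, 1.61, 0.88 and 1.07. Their limma adjusted p values were 0.316, 0.335, 0.138 and 0.0583. With libraries scaled by the median of ratios, Mmp19 passed the limit of 0.05 (1.03; limma adjusted p = 0.0455), as did 7 of all genes. With the stromal score as a covariate, an alternative chosen after seeing the data, 3 genes passed it, Mmp13 (0.88; limma adjusted p = 0.0489), Mmp19 (1.07; limma adjusted p = 0.028) and Timp1 (1.46; limma adjusted p = 0.0324), as did 78 of all genes. Without M-Shp2-/- library 3, Mmp12 (2.28; limma adjusted p = 0.000789) and Mmp19 (1.14; limma adjusted p = 0.00304) passed the thresholds of the study, as did 1.39% of all genes. Mmp8 (1.04; limma adjusted p = 0.0325) and Mmp13 (0.82; limma adjusted p = 0.0155) then passed an adjusted p of at most 0.05, as did 19.9% of all genes. The number of genes at that limit went from 8 to 2277 when this library was left out, and to between 0 and 2 without any other single library.

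**Figure D4:**
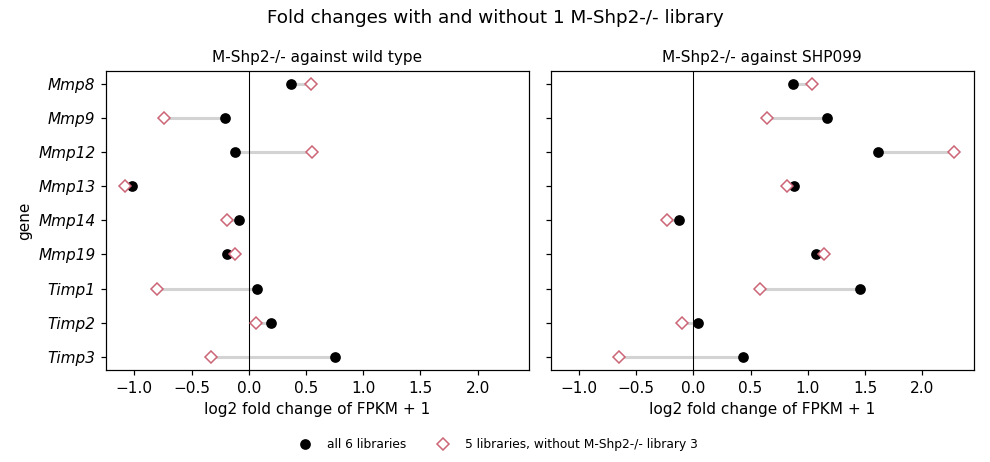
Log2 fold change of FPKM + 1 (horizontal axes) of each gene in M-Shp2-/- against wild type and against SHP099, with all 6 libraries (filled circles) and without M-Shp2-/- library 3 (open diamonds). Mmp12 moves from -0.12 to 0.55 against wild type and from 1.61 to 2.28 against SHP099, while Mmp13 moves from -1.02 to -1.08 and from 0.88 to 0.82.

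Mmp13, Mmp12 and Mmp8 belong to a cluster of MMP genes on chromosome 9. Of its 10 genes, 4 had a mean of at least 1 FPKM, these 3 and Mmp27, which lies next to Mmp8. The stromelysin genes Mmp3 and Mmp10 had means of 0.911 and 0.199 FPKM, and Mmp1a and Mmp20 were at 0 in every library. Mmp27 was at 2.21, 2.37 and 4.90 FPKM in the wild type, at 1.13, 1.29 and 5.04 FPKM in M-Shp2-/- and at 0.953, 1.55 and 1.02 FPKM with SHP099. The SHP099 libraries of Mmp27 were below the wild type without passing the adjustment (log2 fold change -0.89, limma adjusted p = 0.0892).

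**Figure D5:**
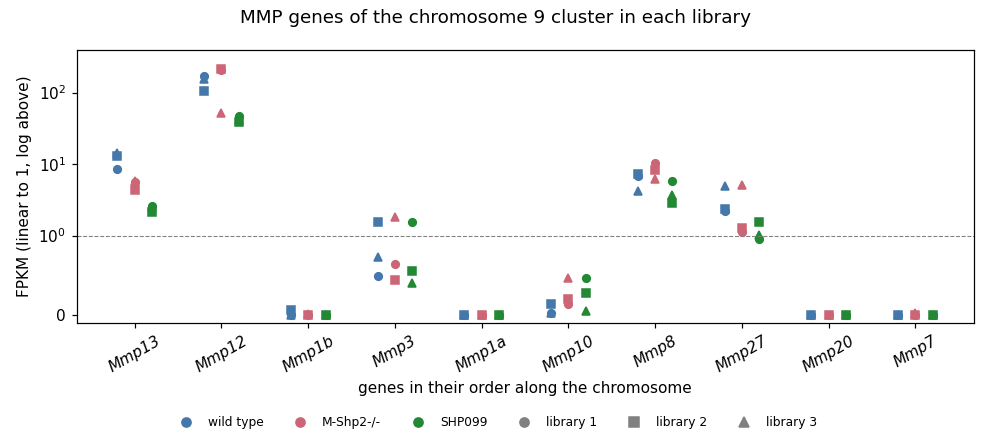
FPKM (vertical axis, linear up to 1 and logarithmic above, dashed line at 1) of the 10 MMP genes of the chromosome 9 cluster in their order along the chromosome, with 1 point per library coloured by group. Mmp13, Mmp12, Mmp8 and Mmp27 have means of at least 1 FPKM, and Mmp1a and Mmp20 are at 0 throughout.

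Annotated neighbours could share reads with some of these genes, because the strand used in counting is not given in the sources used here. Mmp12 overlaps Mmp1b, Mmp19 overlaps Gm47093 and Tmem198b, and Timp3 overlaps Syn3, each on the opposite strand. Of these neighbours Tmem198b was the highest, at 0.409 to 1.55 FPKM, and the others did not exceed 0.176 FPKM.

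Of 18 further genes of these families, the remaining MMPs and Timp4, 3 were tested and none passed an adjusted p of at most 0.05 in any comparison. Over all genes the share that passed was 0.0873% in M-Shp2-/- against wild type, 6.96% with SHP099 against wild type and 0.0699% in M-Shp2-/- against SHP099. Mmp2, gelatinase A, was the most abundant, at 12.3, 20.5 and 19.2 FPKM in the wild type, 22.7, 13.8 and 21.5 FPKM in M-Shp2-/- and 21.1, 22.4 and 41.8 FPKM with SHP099. The SHP099 libraries lay above the wild type, with a log2 fold change of 0.64 (limma adjusted p = 0.21). Mmp23 had a log2 fold change of 0.20 with SHP099.

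Genes that activate, dock or clear MMPs were taken as a list of 16, of which 11 were tested. With SHP099 against wild type 3 fell and 0 rose past the limit of 0.05, against 2.41% and 4.55% of all genes, and the median log2 fold change was -0.41 (0.13 over all genes). Plaur, the receptor of urokinase, which starts plasmin formation at the cell surface, fell by 1.19 (limma adjusted p = 0.0112), from 511 to 604 FPKM in the wild type to 202 to 284 FPKM. Furin, the convertase that removes the propeptide of Mmp14, fell by 0.76 (limma adjusted p = 0.0215), and Cd44, a docking site of Mmp9, fell by 0.64 (limma adjusted p = 0.0141). In M-Shp2-/- the libraries of Plaur and Furin were also all below the wild type, with log2 fold changes of -0.59 and -0.66 that did not pass (limma adjusted p = 0.448 and 0.388). Lrp1, the endocytic receptor that clears MMPs, was the most abundant of the list and did not pass with SHP099 (-0.41; limma adjusted p = 0.152), nor did Serpinb2, a plasminogen activator inhibitor (-1.02; limma adjusted p = 0.179).

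Of 21 ADAM and ADAMTS proteases, relatives of the MMPs that TIMPs also inhibit, 13 were tested, and 2 rose and 2 fell with SHP099 (4.55% and 2.41% of all genes), with a median log2 fold change of 0.24. Adamts4, an aggrecanase, fell by 1.82 (limma adjusted p = 0.0469) and Adam8, a sheddase of leukocytes, fell by 0.88 (limma adjusted p = 0.028). Adam10, a sheddase of Notch and cadherins, rose by 0.49 (limma adjusted p = 0.0366) and Adamts10, which binds fibrillin, rose by 0.68 (limma adjusted p = 0.0258). Adam17, the TNF convertase and a target of Timp3, was the most abundant of the list and did not pass (0.39; limma adjusted p = 0.121), and Adam9 was at 76.3 to 131 FPKM over the 9 libraries.

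Among 14 matrix proteins that MMPs cleave, 12 were tested, and 2 fell and 0 rose with SHP099 (2.41% and 4.55% of all genes), with a median log2 fold change of 0.15. Spp1, osteopontin, fell by 1.42 (limma adjusted p = 0.00916), from 1440 to 1800 FPKM in the wild type to 475 to 699 FPKM. Vcan, the proteoglycan versican, fell by 1.58 (limma adjusted p = 0.0209). Fn1, fibronectin, was at 315, 829 and 248 FPKM in the wild type and at 326, 215 and 719 FPKM in M-Shp2-/-, high in the libraries with the highest stromal scores, and did not pass with SHP099 (0.25; limma adjusted p = 0.747). Thbs1, thrombospondin 1, was at 46.6 to 242 FPKM over all libraries. Of 10 cathepsins and other matrix proteases, all tested, 0 passed in any comparison. Over all genes 0.0873% passed in M-Shp2-/- against wild type, 6.96% with SHP099 against wild type and 0.0699% in M-Shp2-/- against SHP099. With SHP099 against wild type 9 of these 10 were lower (28.8% of all genes), with a median log2 fold change of -0.17 (0.13 over all genes). An unadjusted limma p under 0.05 was reached by 5 of them (26.7% of all genes). For 3 all SHP099 libraries were below the wild type (6.77% of all genes). Ctsb, Ctss and Ctsd were the most abundant of this list, with Ctsb at 4789 to 6074 FPKM.

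Other markers moved with SHP099 in the same libraries as the MMP genes. Of the 8 macrophage markers, Mrc1 fell by 2.18 (limma adjusted p = 0.00289) and Csf1r rose by 1.38 (limma adjusted p = 0.0222). The summed level of the list was 9478, 12080 and 9737 FPKM in the wild type, 6950, 6950 and 7211 FPKM in M-Shp2-/- and 11020, 12080 and 12570 FPKM with SHP099. That sum was mostly Lyz2, for which the part of Lyz2-cre was not tested. Mrc1 was at 61.5, 43.8 and 43.5 FPKM in the wild type and at 10.3, 10.1 and 9.79 FPKM with SHP099, and in M-Shp2-/- its low library was library 3, as for Mmp12. Csf1r was at 58.2, 67.8 and 111 FPKM in the wild type, at 87.4, 71.8 and 176 FPKM in M-Shp2-/- and at 181, 211 and 206 FPKM with SHP099. Among lists of other cells, 1 gene each was tested of 5 dendritic cell and 4 endothelial markers, and each fell with SHP099, as did 2.41% of all genes. These were Ccr7 (-1.52; limma adjusted p = 0.0192) and Kdr (-1.08; limma adjusted p = 0.0406).

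The summed level of the dendritic cell list, led by Ccr7, was 6.25, 4.08 and 3.75 FPKM in the wild type, 7.56, 5.07 and 3.54 FPKM in M-Shp2-/- and 1.50, 1.03 and 1.35 FPKM with SHP099. The endothelial list, led by Kdr, summed to 5.51, 4.39 and 4.84 FPKM, then 5.02, 5.01 and 2.02 FPKM, and 1.85, 1.42 and 1.35 FPKM in the same order. In the sums of the dendritic cell and endothelial lists all SHP099 libraries were thus below the wild type, as for Mmp12, Mmp13, Mmp9 and Mmp19. Gene by gene this held for Flt3, Ccr7, Cdh5 and Kdr, whereas Zbtb46, Xcr1 and Pecam1 overlapped the wild type. Cd209a and Tek were at 0 in all SHP099 libraries, and Tek was also at 0 in the wild type. None of the 8 eosinophil and mast cell markers reached a mean of 1 FPKM, and their sum, led by Tpsb2, was 1.51, 3.43 and 4.49 FPKM in the wild type, 1.81, 0.766 and 1.10 FPKM in M-Shp2-/- and 0.336, 0.229 and 0.632 FPKM with SHP099. The part of these cell types in the fall of the MMP genes was not tested.

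The genes most like each MMP over the 9 libraries, which include the 3 groups and so carry their differences, are given as a description. Those of Mmp12 were Napsa and Rhob (Pearson r of log2(FPKM + 1) of 0.989 and 0.983), and those of Mmp13 were Il1rn and Flrt3 (0.981 and 0.967). Il1rn, the interleukin 1 receptor antagonist, was at 348, 440 and 445 FPKM in the wild type, at 144, 147 and 131 FPKM in M-Shp2-/- and at 54.8, 47.2 and 58.8 FPKM with SHP099, in the same order of groups as Mmp13. Napsa was at 6.76 FPKM in M-Shp2-/- library 3 against 16.5 and 21.2 FPKM in libraries 1 and 2, the pattern of Mmp12. For Mmp19 the nearest were Plpp3 and Serpinb8 (0.969 and 0.965), for Mmp8 Wipf1 and Med24 (0.969 and 0.962), for Mmp14 Chic2 and Ptpn2 (0.974 and 0.972), for Mmp9 Rpl35a-ps4 and B3galnt1 (0.925 and 0.919) and for Timp2 Mgea5 and Eef1a1 (0.916 and 0.911).

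Among the 9 genes themselves, Mmp13 and Mmp19 (r = 0.81) and Timp1 and Timp3 (r = 0.80) were the most alike over the 9 libraries, and Mmp12 and Mmp14 (r = -0.67) the least. These values are descriptions over libraries that share groups.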

How the data were processed

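RNA of 9 cultures was sequenced by the authors as paired-end poly-A libraries, aligned with HISAT2 2.0.4 and counted per gene with HTSeq 0.9.1, and the values were deposited as FPKM. The tool for FPKM, genome build and counting strand are not given in the sources used here. Of 5235 gene spans, 4808 (91.8%) equalled GENCODE M21 (GRCm38), which gave symbols and positions. FPKM multiplied by mean transcript length fell on whole reads (within 0.05) for 96.3% to 96.7% of values up to 50 reads (10% by chance), which gave depths. The 11450 genes averaging 1 FPKM or more were fitted as log2(FPKM + 1) with limma 3.58.1 (eBayes with trend; R 4.3.3; Python 3.11.15 for tables) on the 6 libraries of each pair of groups and Benjamini-Hochberg adjustment over all genes. Fold changes on this scale understate changes of low genes. A test of the fit on simulated data was also made, but its outcome is not reported here and no statement rests on it. Alternatives were other pseudocounts, filters, scalings, priors and fits, voom on recovered reads and leaving out each library. Members and lists were chosen with earlier results of these data known. Beside the 9 members, genes were named from 12 lists where the adjusted p was at most 0.05 or they were among the 3 most abundant of a list, with the 2 genes most correlated with each member; further genes named as neighbours, defining markers or cluster genes, and the promoter motifs, were chosen after their values were seen. Results of 1 of the lists are not reported here.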

Additional observations from a re-analysis of the deposited data

Results flagged for a closer look

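Ptpn11, the deleted gene, differed between the effect of the deletion and that of the inhibitor: M-Shp2-/- against SHP099 gave a log2 fold change of -1.13 (limma adjusted p = 0.0109), lower in 3 of 3 libraries. No MMP or TIMP gene passed an adjusted p of at most 0.05 in this comparison with all libraries and no added scaling or covariate, whereas 1 did with median-of-ratios scaling and 3 with the stromal score as a covariate. No formal test for a single distant library was run within groups of 3 libraries.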

How the results depend on the processing

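No MMP or TIMP gene was called at the thresholds of the study in M-Shp2-/- against wild type under any of the alternatives run; with SHP099 1 was called when all 9 libraries were fitted together, and 3 passed an adjusted p of at most 0.05 with no fold threshold. Leaving out each library in turn gave 0 to 1 with SHP099 and 0 to 2 in M-Shp2-/- against SHP099. Mmp12 with SHP099 kept its direction, from -1.94 to -1.59 without single libraries, Mmp13 from -2.10 to -1.77, Mmp9 from -1.63 to -1.18 and Mmp19 from -1.46 to -0.89; over the other alternatives the ranges were -1.88 to -1.64, -2.28 to -1.18, -1.52 to -1.14 and -1.51 to -0.79, with the smallest values at a pseudocount of 5. Adjusted p ranged over all alternatives from 0.00331 to 0.0659 for Mmp12, 0.00302 to 0.0536 for Mmp13, 0.015 to 0.131 for Mmp9 and 0.0119 to 0.192 for Mmp19; the number of these 9 genes at an adjusted p of at most 0.05 was 1 without SHP099 library 2 and 4 without wild-type library 3, where all genes at that limit numbered 47 and 1273 against 797.

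All genes called in M-Shp2-/- against wild type went from 1 to 0 without a filter, without a trend, with the replicate block and without any 1 library, to 2 with all libraries in 1 fit, to 3 with median-of-ratios scaling and to 10 at an adjusted p of at most 0.05. With SHP099 they went from 19 to 0 without a filter or with the replicate block, to 4 without a trend, to 7 with voom, to 797 at the looser limit, and from 0 to 26 without single libraries. In M-Shp2-/- against SHP099 they went from 0 to 1 with all libraries in 1 fit, to 8 at the looser limit and from 0 to 159 without single libraries, the last without M-Shp2-/- library 3. Deviations from the group means correlated at -0.43 to 0.49 between same-numbered libraries and at -0.63 to 0.54 between differently numbered ones. With 3 libraries per group these values cannot show whether libraries of the same number were paired. The cause of the differences between the counts of called genes was not tested.

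Values that changed sign in M-Shp2-/- against wild type were Mmp14 at 0.01 with quantile normalization and Timp1 at -0.10 with median-of-ratios scaling and -0.03 with quantile normalization. With SHP099 it was Mmp14 at -0.11 with median-of-ratios scaling. Without single libraries the ranges in M-Shp2-/- against wild type were 0.15 to 0.54 for Mmp8, -0.74 to 0.25 for Mmp9, -0.46 to 0.55 for Mmp12, -0.19 to 0.00 for Mmp14, -0.40 to 0.18 for Mmp19, -0.80 to 0.74 for Timp1, 0.06 to 0.29 for Timp2 and -0.33 to 1.63 for Timp3. With SHP099 they were -0.72 to -0.31 for Mmp8, -0.05 to 0.09 for Mmp14, -1.96 to -0.71 for Timp1, 0.07 to 0.27 for Timp2 and -0.15 to 1.08 for Timp3, and in M-Shp2-/- against SHP099 0.64 to 1.63 for Mmp9, 0.58 to 2.02 for Timp1, -0.10 to 0.13 for Timp2 and -0.65 to 1.31 for Timp3. Alternatives chosen after seeing the data were the stromal score as a covariate, with Mmp12 at 0.22, Timp1 at -0.53 and Timp3 at 0.01 in M-Shp2-/- and Timp3 at -0.34 with SHP099, and leaving out wild-type library 2 and M-Shp2-/- library 3, with Mmp12 at 0.34, Mmp19 at 0.25 and Timp1 at -0.13; both called 0 of all genes in M-Shp2-/- against wild type. With that covariate Timp1 was at -2.00 with SHP099 (limma adjusted p = 0.00673; 0.00673 to 0.509 over all alternatives). At least 176 reads were recovered for each of the 9 genes in each library.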
